A study of Mus musculus with 4 samples.

Results

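Chemokines are small secreted proteins that form gradients and steer leukocytes through G protein-coupled receptors. The CC and CXC families are named for the spacing of their first conserved cysteines, and each ligand group recruits its own cells: monocytes, neutrophils, lymphocytes. In experimental pancreatitis, injured acinar cells, resident macrophages and stromal cells are known sources of the ligands that draw myeloid cells into the gland.

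The members were 10 chemokine genes, 5 of the CC family (Ccl2, Ccl6, Ccl7, Ccl8 and Ccl9) and 5 of the CXC family (Cxcl1, Cxcl5, Cxcl12, Cxcl13 and Cxcl16), out of 22180 genes on the array. They were chosen by name, with earlier results of these data known. For each gene the array rows annotated with that symbol alone were used, and the row with the highest mean would have been kept, but every member had exactly 1 such row, so 10 of 10 were measured. The 4 arrays held whole pancreas of 8-week-old wild-type mice (n = 2) and of 8-week-old mice null for Ifrd1, a transcriptional co-regulator (n = 2). All 4 mice had received cerulein, a cholecystokinin analog that over-stimulates acinar cells and causes pancreatitis, at 100 µg/kg in 6 intraperitoneal injections per day on alternate days, and tissue was taken on day 5, when the study looked for proliferation after injury. Strain, sex and the construction of the null allele are not given in the labels, and untreated pancreas is not analysed here, so no value below is a response to injury.

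Values are the authors' deposited log2 levels per array. Array medians over all genes lay between 4.66 and 4.70. The 95th percentile of 1105 olfactory receptor genes, which pancreas is not known to use, lay between 3.83 and 4.05 and served as a mark of background, since no detection call was used. Ifrd1 was at 9.04 and 9.07 in wild type and at 6.99 and 7.09 in the null, a difference of -2.02 ± 0.11 (SE), with a limma adjusted p of 0.138. The acinar enzyme Cpa1 was between 13.4 and 13.7 on every array. Xist was at 2.56 and 3.54 in wild type and at 10.15 and 9.58 in the null, and the Y-linked Uty at 6.41 and 6.40 against 2.25 and 2.36. Genotype and sex, as read from these genes, therefore cannot be told apart in any comparison below. Wild type 1 stood apart in intestinal epithelium markers, whose summed linear level was 286 there and 65.5 to 84.6 on the other arrays. The mice are labelled as biological replicates; with so few arrays, all values are imprecise.

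Promoter letters from RefSeq (build GRCm38.p6) matched 6 of the 10 members by gene ID and symbol. The 250 bases before the transcription start are shown for Ccl6, Ccl9, Ccl8 and Cxcl13, whose levels were highest in the same array (Ifrd1 null 1), and for Cxcl1, a textbook target of NF-kB. They lie at chr11:83593088-83593337 on the minus strand for Ccl6, chr11:83578637-83578886 on the minus strand for Ccl9, chr11:82114935-82115184 on the plus strand for Ccl8, chr5:95956689-95956938 on the plus strand for Cxcl13 and chr5:90890995-90891244 on the plus strand for Cxcl1. Capitals mark matches, on either strand, to GGGAATT (most of an NF-kB site), TATAAA (the core promoter element bound by TBP), ACTTCC (an ETS core) or TGANTCA (an AP-1 site).
Ccl6: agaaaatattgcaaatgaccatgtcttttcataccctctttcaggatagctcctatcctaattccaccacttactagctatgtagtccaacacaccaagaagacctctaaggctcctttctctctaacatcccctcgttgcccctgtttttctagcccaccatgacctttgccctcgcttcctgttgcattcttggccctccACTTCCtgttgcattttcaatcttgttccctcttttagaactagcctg
Ccl9: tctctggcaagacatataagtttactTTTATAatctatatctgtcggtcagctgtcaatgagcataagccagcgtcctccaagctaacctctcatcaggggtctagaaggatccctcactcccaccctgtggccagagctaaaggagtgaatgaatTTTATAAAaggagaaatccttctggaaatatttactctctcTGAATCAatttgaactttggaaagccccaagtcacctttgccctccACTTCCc
Ccl8: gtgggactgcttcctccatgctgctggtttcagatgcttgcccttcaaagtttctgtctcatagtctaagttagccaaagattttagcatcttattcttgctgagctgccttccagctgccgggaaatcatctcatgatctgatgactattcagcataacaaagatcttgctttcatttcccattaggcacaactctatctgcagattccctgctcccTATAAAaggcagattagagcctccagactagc
Cxcl13: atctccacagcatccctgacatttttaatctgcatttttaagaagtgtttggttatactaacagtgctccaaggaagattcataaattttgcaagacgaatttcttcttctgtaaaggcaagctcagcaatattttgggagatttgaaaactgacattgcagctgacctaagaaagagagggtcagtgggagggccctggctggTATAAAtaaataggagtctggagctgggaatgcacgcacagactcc
Cxcl1: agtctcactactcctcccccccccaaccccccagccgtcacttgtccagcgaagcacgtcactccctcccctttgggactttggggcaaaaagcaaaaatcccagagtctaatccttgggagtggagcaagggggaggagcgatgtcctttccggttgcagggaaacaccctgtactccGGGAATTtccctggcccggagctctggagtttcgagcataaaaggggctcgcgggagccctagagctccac

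The NF-kB letters occurred in the Cxcl1 window alone among these 5, at positions -71 to -65 from the start, and in 3.08% of all 32851 windows of the same length. TATAAA was at -32 to -27 in Ccl8 and at -46 to -41 in Cxcl13, and Ccl9 held it 3 times, with a pair of overlapping matches on opposite strands between -94 and -87; 12.4% of all windows held it. ACTTCC was at -48 to -43 in Ccl6 and at -7 to -2 in Ccl9 (19.7% of all windows), and the AP-1 letters at -53 to -47 in Ccl9 (6.75%). The Cxcl12 window, at chr6:117168285-117168534 on the plus strand, held none of the 4 motifs. Ccl6 and Ccl9, which are next to each other on chromosome 11, shared the run GCCCTCCACTTCC, the longest run common to any pair of the 6 windows. Over all their aligned bases 63.1% were identical, within the 56.6% to 65.9% seen over all pairs. A match describes letters and is not evidence that a factor binds there.

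Across the 10 chemokines no genotype difference passed the threshold. In limma with Benjamini-Hochberg adjustment over all genes, 0 members had an adjusted p under 0.05, where 0% of all genes were called higher and 0.00451% lower in the null. That share is 1 gene, the Y-linked Uty (limma adjusted p = 0.0206), by which the groups differ in sex. At unadjusted p under 0.05 there was 1 member, Cxcl16, lower in the null, against 6.91% of all genes in either direction (3.27% higher and 3.63% lower). By group means 7 members were higher in the null and 3 lower, with a median difference of 0.13 on the log2 scale, while 47.2% of all genes were higher and their median was -0.01. Direction went with level: of the 6 members above the array median on every array, 3 were higher and 3 lower, with a median of -0.06. Of the 10368 genes at that level 3276 were higher and 7080 lower, with a median of -0.07. The groups did not overlap for 2 members, against 35.8% of all genes: Ccl7 was higher in the null, as were 16.1% of all genes, and Cxcl16 lower, as were 19.7%. Among the 10368 genes above the array median on every array, as Cxcl16 was, 3095 were lower without overlap. The 7 higher members depended on 1 mouse: without Ifrd1 null 1 there were 3 of 10 higher with a median of -0.14, and without Ifrd1 null 2 there were 6 of 10 with a median of 0.34. Without wild type 1, the array with the high intestinal marker sum, 6 of 10 were higher with a median of 0.05. The panel of levels by array shows the chemokines one by one.

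**Figure D1:**
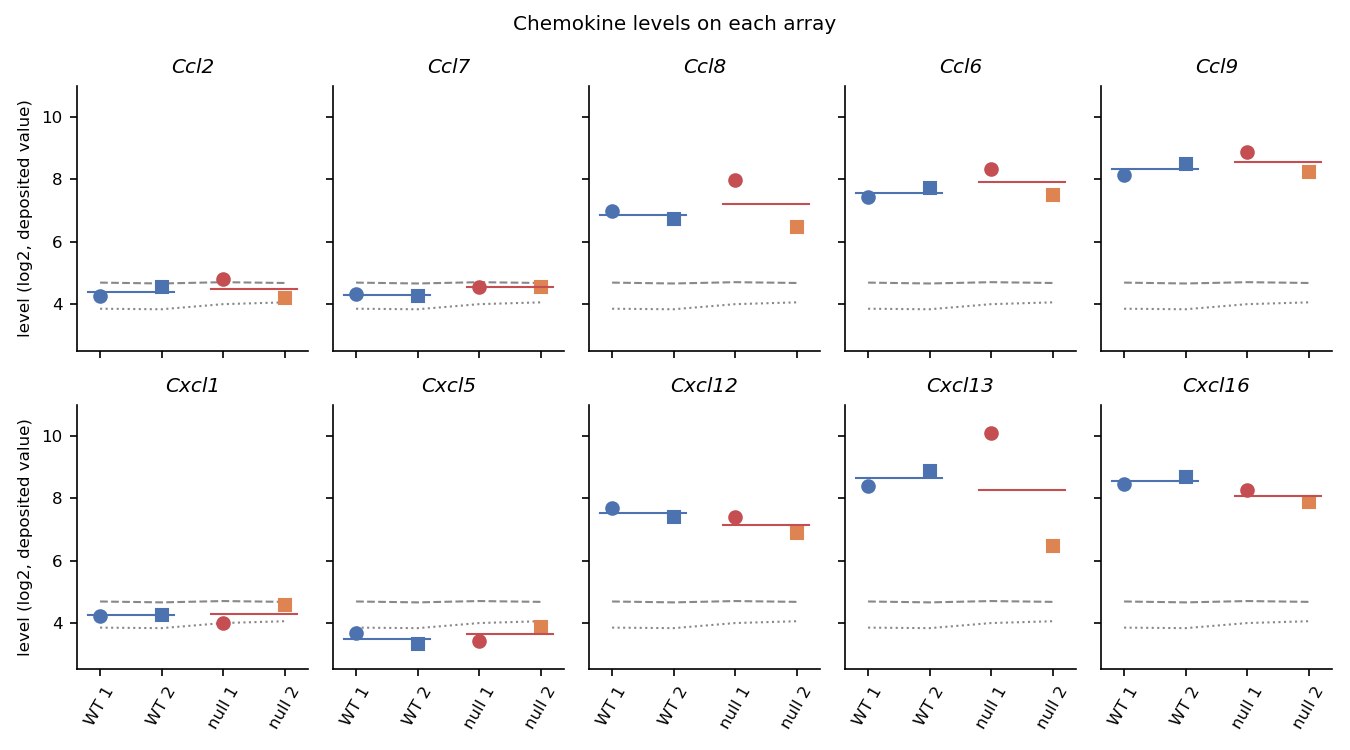
Deposited log2 level (vertical axis) of each chemokine on the 4 arrays (circles for replicate 1, squares for replicate 2; blue for wild type, red and orange for the Ifrd1 null), with short lines at the group means of 2 arrays. Dashed lines join the array medians over all genes and dotted lines the 95th percentile of olfactory receptor genes; Ccl2, Ccl7, Cxcl1 and Cxcl5 sit near these lines, and Cxcl13 runs from 6.46 to 10.10.

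No ligand that attracts monocytes passed the threshold. Ccl2, the main ligand of Ccr2 and the signal that brings inflammatory monocytes out of bone marrow and into tissue, was at 4.24 and 4.53 in wild type and at 4.81 and 4.18 in the null. The null arrays enclosed both wild-type arrays, and Ccl2 exceeded the array median in 1 of 4 arrays, though it was above the olfactory receptor mark in all 4. Its difference was 0.10 ± 0.25 (SE, 95% interval -0.57 to 0.78, limma adjusted p = 0.923), and the sign turned without wild type 1 (-0.04) and without Ifrd1 null 1 (-0.21).

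Ccl7, the neighbour of Ccl2 on chromosome 11 and a second Ccr2 ligand, was at 4.33 and 4.25 in wild type and at 4.54 and 4.55 in the null. Both null arrays were above both wild-type arrays, and the null pair was nearly level. The difference was 0.26 ± 0.10 (SE, interval -0.02 to 0.53, limma adjusted p = 0.722). All 4 values lay below the array medians and above the olfactory receptor mark. Of the 10 members, Ccl7 had the least spread between the null arrays (0.0072, against 0.09 in wild type).

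Ccl8, a further ligand of the same cluster, made largely by macrophages and stroma, was at 6.97 and 6.74 in wild type and at 7.97 and 6.48 in the null. Ifrd1 null 1 was the highest array and Ifrd1 null 2 the lowest. The gap between the null mice was 1.49, or 2.82-fold, and 0.239% of all genes had a null gap at least as wide. The difference between groups was 0.37 ± 0.52 (SE, interval -1.02 to 1.76, limma adjusted p = 0.862), and it was 1.12 without Ifrd1 null 2 and -0.38 without Ifrd1 null 1.

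Ccl6 and Ccl9, neighbouring rodent ligands of Ccr1 that myeloid cells produce in abundance, had like profiles. Ccl6 was at 7.43 and 7.72 in wild type and at 8.34 and 7.50 in the null. Ccl9 was at 8.14 and 8.50 in wild type and at 8.88 and 8.25 in the null. For both genes Ifrd1 null 1 was the highest array, while Ifrd1 null 2 lay between the wild-type arrays. The differences were 0.34 ± 0.32 for Ccl6 (SE, interval -0.50 to 1.18, limma adjusted p = 0.807) and 0.25 ± 0.27 for Ccl9 (SE, interval -0.46 to 0.96, limma adjusted p = 0.823). Without Ifrd1 null 1 they were -0.08 and -0.07, and without Ifrd1 null 2 they were 0.76 and 0.57.

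The neutrophil-attracting ligands were dim. Cxcl1, a Cxcr2 ligand whose promoter letters are shown above, was at 4.23 and 4.24 in wild type and at 3.98 and 4.57 in the null. The wild-type arrays fell between the null arrays, all 4 values were below the array medians, and Ifrd1 null 1 was also below the olfactory receptor mark. Its difference was 0.04 ± 0.22 (SE, interval -0.55 to 0.62, limma adjusted p = 0.973), and the sign turned with quantile normalization (-0.0039), with cyclic loess (-0.01) and without Ifrd1 null 2 (-0.25). Cxcl5, an epithelial Cxcr2 ligand, was at 3.67 and 3.31 in wild type and at 3.41 and 3.87 in the null. None of these 4 values exceeded the olfactory receptor mark of its array, so signal above background is not shown for Cxcl5, and its difference of 0.15 ± 0.22 (SE, limma adjusted p = 0.867) is a difference between values at that level. In these 2 ligands Ifrd1 null 2 was above Ifrd1 null 1, the reverse of these arrays in Ccl2, Ccl6, Ccl8 and Ccl9. With values at or near the background mark, that order is a description only.

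Cxcl12, the stromal ligand of Cxcr4 that retains leukocytes and progenitors in tissue, was at 7.68 and 7.40 in wild type and at 7.40 and 6.87 in the null. Wild type 2 and Ifrd1 null 1 held the same deposited value, so the groups touched without crossing. The difference was -0.41 ± 0.23 (SE, interval -1.01 to 0.20, limma adjusted p = 0.760), a 1.32-fold lower mean, and it stayed below 0 with each array left out (-0.67 to -0.14).

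Cxcl13, which draws B cells into follicles through Cxcr5, showed the widest spread of the 10 members. It was at 8.41 and 8.89 in wild type and at 10.10 and 6.46 in the null. Ifrd1 null 1 was above and Ifrd1 null 2 below both wild-type arrays. The group means were 8.65 ± 0.34 and 8.28 ± 2.57 (SD, n = 2 each). The null mice differed by 3.64 on the log2 scale, or 12.4-fold, against 1.40-fold between the wild-type mice, and Cxcl13 ranked number 5 of 22180 genes by the size of this null gap. The difference between groups, -0.37 ± 1.24 (SE, interval -3.68 to 2.95, limma adjusted p = 0.946), was smaller than the spread within the null group and ran from -2.19 without Ifrd1 null 1 to 1.45 without Ifrd1 null 2.

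Cxcl16, a membrane-anchored ligand of Cxcr6 on T cells that also takes up oxidised lipoprotein in macrophages, was at 8.45 and 8.68 in wild type and at 8.25 and 7.88 in the null. Both null arrays were below both wild-type arrays. The difference was -0.50 ± 0.18 (SE, interval -0.98 to -0.02), a 1.42-fold lower mean. The limma unadjusted p was 0.044 and the adjusted p 0.721, so Cxcl16 did not pass. It stayed below 0 with each array left out (-0.69 to -0.31), and 3.06% of all genes had a difference at least as large in either direction.

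**Figure D2:**
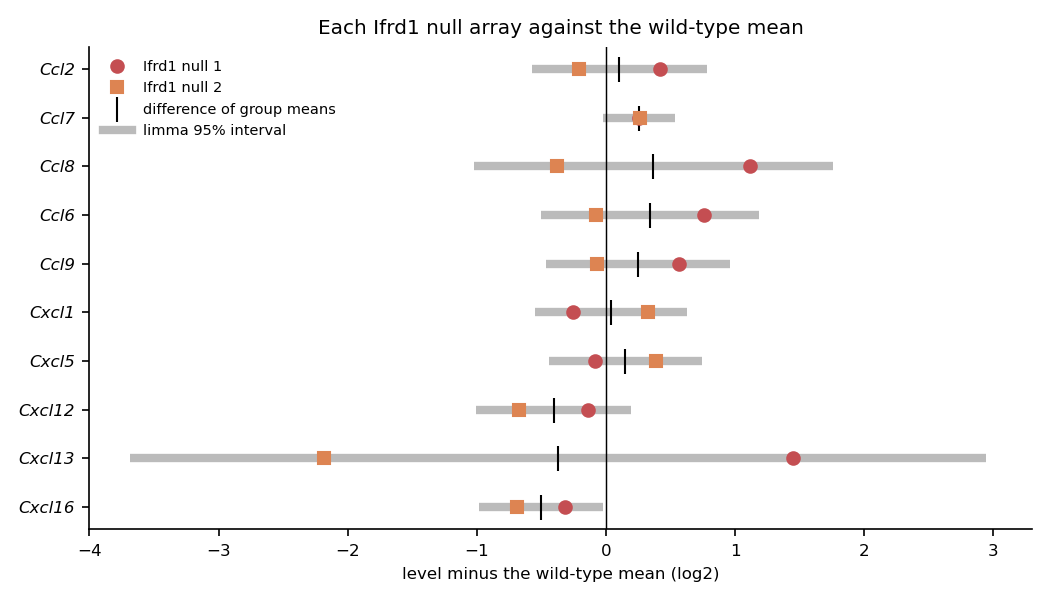
Level of each chemokine in Ifrd1 null 1 (red circles) and Ifrd1 null 2 (orange squares) minus the mean of the wild-type arrays (horizontal axis, log2), with the difference of group means (black ticks) and its limma 95% interval (grey bars). The circles and squares lie on opposite sides of 0 for 7 of 10 members and on the same side for Ccl7, Cxcl12 and Cxcl16; the grey bar of Cxcl16 alone ends short of 0.

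Most members varied more between the null mice than between genotypes. The gap between the null arrays was wider than the difference of group means for 8 of 10 members, the exceptions being Ccl7 and Cxcl16, against 57.6% of all genes. The null arrays lay on opposite sides of the wild-type mean for 7 of 10 members, against 36.4% of all genes. The median gap between the null arrays was 0.61 in size over the members and 0.17 over all genes, and between the wild-type arrays it was 0.29 and 0.14. A null gap of over 0.5 on the log2 scale was seen in 7 of 10 members (Ccl2, Ccl6, Ccl8, Ccl9, Cxcl1, Cxcl12 and Cxcl13) and in 10.6% of all genes. Over the 25 other chemokine ligands measured, the median null gap was 0.15 in size, and the gap was over 0.5 in 4 of 25. These were Ccl5 (1.19), Cxcl9 (1.03), Pf4 (0.94) and Cxcl17 (0.78), each higher in Ifrd1 null 1 (named after their values were seen). The lists differed in level: 7 of these 25 ligands, Ccl5, Pf4 and Cxcl17 among them, were above the array median on every array, against 6 of 10 members. The null gap was wider than the difference of group means in 11 of 25 ligands, and the null arrays lay on opposite sides in 7 of 25. All 6 members above the array median on every array (Ccl6, Ccl8, Ccl9, Cxcl12, Cxcl13 and Cxcl16) were higher in Ifrd1 null 1 than in Ifrd1 null 2, as were 45.9% of all genes. Because the tissue is whole pancreas, fewer cells of a type and less RNA per cell cannot be told apart.

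Likeness between profiles was measured as the Euclidean distance over the 4 arrays after each gene was centred on its own mean, among 75 chemokine, receptor and NF-kB list genes. Ccl2 and Ccl9 were nearest to each other (0.153). Ccl6 was nearest to Ccr1, the receptor it binds (0.129), and next to Ccl9 (0.180). Cxcl13 was nearest to its receptor Cxcr5 (1.59), with Ccl8 (1.76) and Ccl5 (1.77) next. Profiles were not scaled, so these distances reflect the wide range of Cxcl13 and do not show a match of ligand and receptor. The remaining nearest genes were Cxcr3 for Ccl7 (0.081), Vcam1 for Ccl8 (0.472), Myd88 for Cxcl1 (0.149), Ccl22 for Cxcl5 (0.239), Cx3cr1 for Cxcl12 (0.207) and Tnf for Cxcl16 (0.180). Over so few arrays these distances are descriptions only.

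Of the receptors that read these ligands, none passed. Over 17 measured chemokine receptors 11 were higher and 6 lower in the null; their median difference was 0.15, with 0 at adjusted p under 0.05 in limma. At unadjusted p under 0.05 there was 1, Xcr1, a receptor of cross-presenting dendritic cells, at 4.50 and 4.34 in wild type and at 4.12 and 4.07 in the null (named after its values were seen); 6.91% of all genes were called so, and 47.2% were higher. Ccr2, the monocyte receptor of Ccl2 and Ccl7, was at 6.62 and 6.97 in wild type and at 6.79 and 6.35 in the null (-0.23 ± 0.22, SE). Ccr1 was at 4.08 and 4.24 against 4.82 and 4.10 (0.31 ± 0.27). Cxcr4 was at 6.50 and 6.51 against 7.14 and 6.43 (0.28 ± 0.26), and like Ccr1 its high array was Ifrd1 null 1.

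Cxcr5, the receptor for Cxcl13, was at 4.72 and 4.91 in wild type and at 5.50 and 4.05 in the null, so that Ifrd1 null 1 and 2 again enclosed the wild-type pair (-0.04 ± 0.50, SE). Its value in Ifrd1 null 2 was not above the olfactory receptor mark. Cxcr2, the neutrophil receptor of Cxcl1 and Cxcl5, was at 4.04 and 3.28 against 4.25 and 3.51 (0.22 ± 0.37), above that mark on 2 of 4 arrays. Cxcr6, the receptor for Cxcl16, was at 2.76 and 3.16 against 3.14 and 2.96, at or near background. The atypical receptors, which take up ligands without classical signalling, had 1 of 5 measured members higher in the null and a median of -0.18, with 0 at unadjusted p under 0.05 in limma. Ackr1, the endothelial interceptor of inflammatory chemokines, was at 4.46 and 4.65 against 4.29 and 4.39 (-0.22 ± 0.12), and Ackr3, the second receptor for Cxcl12, at 5.43 and 5.17 against 4.95 and 5.28 (-0.18 ± 0.17).

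Other ligands were split as well. Of 25 measured, 13 were higher and 12 lower in the null (median difference 0.0037), and 2 had an unadjusted p under 0.05 in limma, 1 in each direction, a share near the 6.91% of all genes. Ccl17, a T cell attractant of dendritic cells, was at 3.19 and 3.24 in wild type and at 3.74 and 3.78 in the null, a difference of 0.54 ± 0.10 (SE, limma adjusted p = 0.721). All 4 of its values lay below the olfactory receptor mark. Cxcl14, an epithelial and stromal ligand, was at 6.69 and 6.85 against 6.37 and 6.26 (-0.46 ± 0.12, limma adjusted p = 0.721). Cxcl3, a Cxcr2 ligand of the same gene cluster as Cxcl1, was at 2.27 and 1.90 against 1.73 and 1.52 (-0.46 ± 0.17), also under the background mark.

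The NF-kB list, which holds pathway subunits, feedback inhibitors and the cytokines that induce these ligands, had 9 of 18 measured genes higher and 9 lower, a median of -0.0060 and 0 genes at adjusted or unadjusted p under 0.05 in limma. Nfkbia, the inhibitor that NF-kB itself induces, was at 7.94 and 8.17 in wild type and at 8.50 and 8.15 in the null (0.28 ± 0.17, SE). Nfkbiz was at 6.58 and 6.79 against 6.34 and 6.49 (-0.27 ± 0.13), and Sele, an endothelial adhesion molecule, at 2.85 and 2.97 against 3.04 and 3.32 (0.27 ± 0.14), with all 4 Sele values below the olfactory receptor mark. Tnf was at 4.40 and 4.55 against 4.36 and 3.91 (-0.34 ± 0.19), above that mark on 3 of 4 arrays. Il1b, at 3.07 to 3.68, and Il6, at 2.05 to 2.26, were below the olfactory receptor mark on every array.

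**Figure D3:**
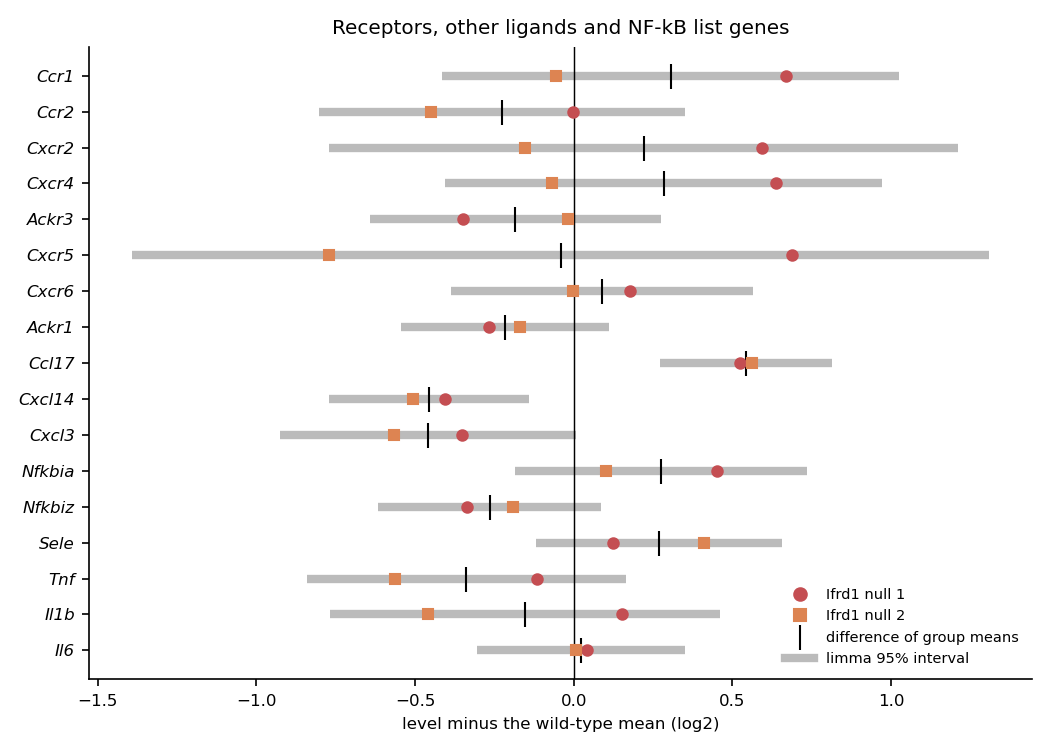
Receptors, other ligands and NF-kB list genes drawn as for the chemokines: Ifrd1 null 1 (red circles) and Ifrd1 null 2 (orange squares) minus the wild-type mean (log2), the difference of group means (black ticks) and its limma 95% interval (grey bars). Ccl17 and Cxcl14 have intervals that end short of 0, and Cxcr5 has the widest interval.

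Markers of several other cell types, though not all, ordered the null arrays as the bright chemokines did. Of 10 measured macrophage markers 10 were higher in Ifrd1 null 1 than in Ifrd1 null 2 (median gap 0.72), as were 5 of 5 monocyte markers (0.91), 6 of 6 B and plasma cell markers (1.56), 5 of 5 adipocyte markers (1.45), 8 of 8 stellate and fibroblast markers (0.36) and 5 of 5 mesothelial markers (0.43). So were 7 of 8 T and NK cell, 5 of 6 endothelial and 3 of 4 duct markers. Other lists were split by count: 5 of 9 neutrophil, 3 of 5 dendritic, 3 of 5 follicular dendritic and lymph node, 2 of 5 intestinal, 1 of 4 mast cell and 1 of 4 islet markers were higher in Ifrd1 null 1. Some of these lists were dim. Only 2 of 9 neutrophil, 1 of 5 follicular dendritic and lymph node, 1 of 5 intestinal and 2 of 4 mast cell markers exceeded the olfactory receptor mark on every array. For such lists the split does not show whether the cells shared the order. The 5 dendritic and 4 islet markers all exceeded it. Acinar markers were higher in Ifrd1 null 1 in 0 of 5 (median gap -0.29). On the linear scale, summed B and plasma cell marker levels were 272 and 263 in wild type and 657 and 167 in the null, and summed macrophage marker levels were 4834 and 5294 against 5800 and 3559. The B cell receptor chain gene Cd79a was at 6.23 and 6.01 against 7.19 and 5.31, highest in Ifrd1 null 1 and lowest in Ifrd1 null 2 as Cxcl13 was. Cd68, a macrophage lysosomal protein, was at 9.42 and 9.36 against 9.76 and 8.94. Adgre1 was at 7.75 and 7.83 against 7.86 and 7.21. The part of these cell type markers in the chemokine values was not tested.

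Monocyte and neutrophil genes bear on the ligands that attract those cells. Of 5 monocyte markers 3 were higher and 2 lower in the null by group means. Ly6c2 was at 6.04 and 5.90 in wild type and at 6.80 and 5.90 in the null, and Chil3 at 4.67 and 4.39 against 5.80 and 5.02, while the 2 lower ones were F13a1, at 9.23 and 9.23 against 9.39 and 8.64, and Fn1, at 10.13 and 10.21 against 10.56 and 9.65. Of 9 neutrophil markers 7 were higher and 2 lower in the null, and 2 were above the olfactory receptor mark on every array. These were Retnlg, a granulocyte secreted protein, at 5.22 and 4.98 against 6.56 and 5.87, and Csf3r, the receptor for granulocyte growth factor, at 5.79 and 5.80 against 5.79 and 5.80 (F13a1, Fn1, Retnlg and Csf3r were named after their values were seen). S100a8, at 1.74 to 2.14, was below the mark on all 4 arrays, as Cxcl5 was. Of 5 genes listed for follicular dendritic cells and lymph node stroma, a known setting for Cxcl13, 1 was above the mark on every array, Madcam1, at 4.80 and 4.82 against 5.08 and 5.02. Fcer2a, above it on 3 of 4 arrays, was at 4.16 and 4.05 against 4.61 and 3.31. Cr2 was at 3.99 and 3.67 against 4.06 and 3.42. Ltf and Clec4g were below the mark on every array and higher in Ifrd1 null 2 than in Ifrd1 null 1 (Fcer2a, Ltf and Clec4g were named after their values were seen). Stromal cells are a known source of Cxcl12. Of 8 stellate and fibroblast markers 2 were higher and 6 lower in the null by group means, and 3 were lower without overlap. All 8 were above the array median on every array, and of 10368 such genes 7080 were lower, 3095 of them without overlap. Col1a1 was at 10.27 and 10.40 against 10.98 and 9.88, with the higher mean in the null. Pdgfrb was at 7.37 and 7.29 against 7.11 and 6.89, lower in both null arrays.

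**Figure D4:**
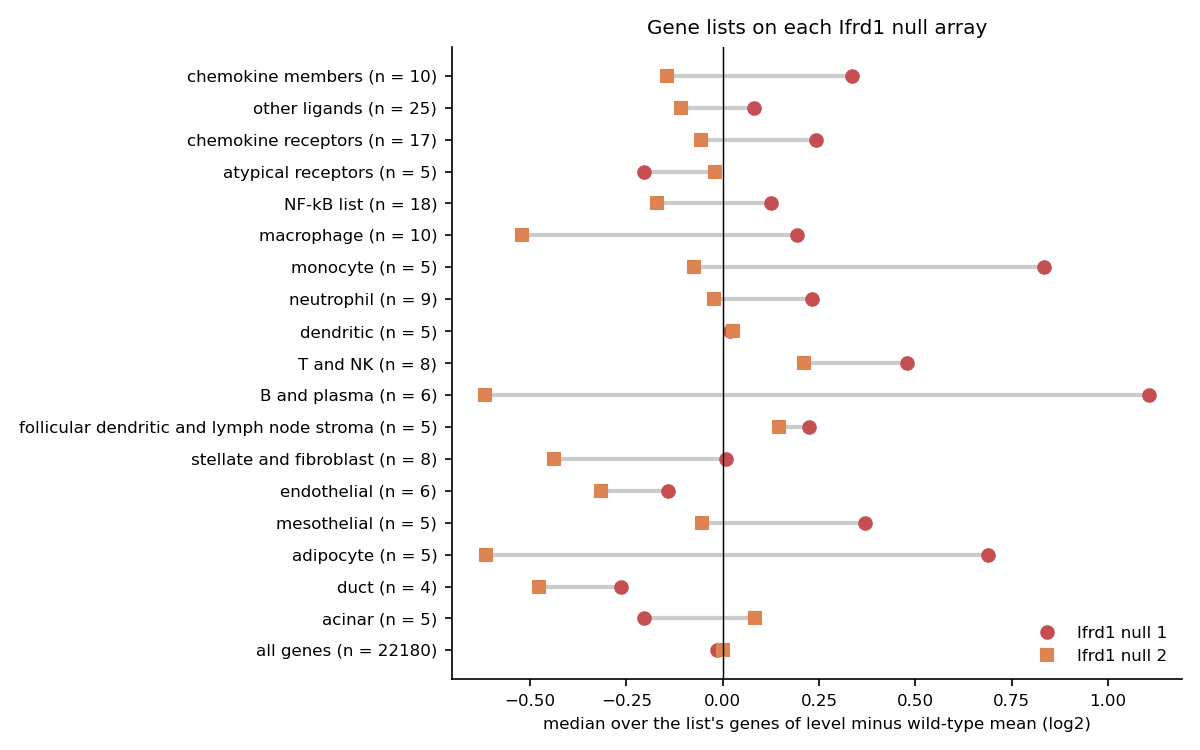
Median over the genes of each list of the level in Ifrd1 null 1 (red circles) and Ifrd1 null 2 (orange squares) minus the wild-type mean (horizontal axis, log2), with the number of measured genes per list. The chemokine members stand at 0.34 and -0.14, the B and plasma cell markers at 1.11 and -0.62, and all genes at -0.01 and 0.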

How the data were processed

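Per the labels' protocols, biotin-labelled total RNA of whole pancreas from 4 mice was run on Affymetrix arrays. The values used are the authors' deposited levels per transcript cluster, treated as log2; they ran from 0.218 to 13.918, from which the log2 scale was inferred. Background correction, probe summary, normalization and log base are not given in the sources used here. Of 41345 rows, 23521 had 1 symbol in the platform annotation, 1814 several and 16010 none here; genes with more than 1 row (1082) kept the row with the highest mean, leaving 22180 genes.

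Groups were compared as Ifrd1 null minus wild type with limma 3.58.1 in R 4.3.3 (lmFit and eBayes, no covariates), with two-sided p-values adjusted over all genes and a threshold of 0.05. The fit was tested on simulated data. An exact permutation test of 2 against 2 has a smallest p of 0.333 and is not given. Alternatives were quantile normalization, cyclic loess, median centring, the replicate number as a block, trend and robust eBayes, genes above the median level, the mean over a gene's rows, each array left out and, added after seeing the data, leaving out genes with the same value on 2 or more arrays (3124 genes). Members and lists were chosen with earlier results of these data known. Named genes were the members, Ifrd1, their main receptors, Tnf, Il1b, Il6, Nfkbia, the 3 genes of smallest p among other ligands and the NF-kB list, the first genes of the marker lists that bear on the results, and each member's nearest profile. List symbols without a single-symbol row are not analysed here. Promoters were searched with motifs chosen after seeing the data.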

Additional observations from a re-analysis of the deposited data

How the results depend on the processing

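No member passed the adjusted threshold under any alternative that gave it a value. With an array left out, the differences ran from -0.2100 to 0.4188 for Ccl2, -0.0793 to 0.7602 for Ccl6, -0.3784 to 1.1152 for Ccl8, -0.0676 to 0.5652 for Ccl9, -0.2549 to 0.3282 for Cxcl1, -0.0822 to 0.3849 for Cxcl5, -2.186 to 1.4492 for Cxcl13, -0.0572 to 0.6684 for Ccr1, -0.1562 to 0.5962 for Cxcr2, -0.0687 to 0.6363 for Cxcr4 and -0.7700 to 0.6876 for Cxcr5. Ccl7, Cxcl12 and Cxcl16 kept their sign. Without 1 array, 3 to 6 members were higher in the null, their median ran from -0.1447 to 0.3362, 0 to 3 members and 1301 to 2232 genes had an unadjusted p under 0.05, and 0 genes passed in either direction. Cxcl1 turned to -0.0039 with quantile normalization and to -0.0145 with cyclic loess, and 0 members had an unadjusted p under 0.05 with either. Genes past the threshold were 1 higher and 3 lower with cyclic loess, 1 and 4 with median centring, with trend and robust eBayes and without tied genes, and 0 and 0 among genes above the median level (884 at unadjusted p under 0.05). That filter left Ccl2, Ccl7, Cxcl1 and Cxcl5 without a value, and the removal of tied genes left Cxcl12 without one. Ifrd1 passed with median centring (limma adjusted p = 0.0349), with trend and robust eBayes (0.0419) and without tied genes (0.0211). The cause of these changes was not tested. With the replicate number as a block, 1 gene passed higher and 3 lower, and 2 members had an unadjusted p under 0.05. Over all genes, deviations of same-numbered arrays from their group means correlated at -0.0352. With 2 arrays a group this value is necessarily the same for both replicate numbers. It cannot show whether the mice were paired, and the labels do not say so. Precision is limited by 2 arrays a group and, for Ccl2, Ccl7, Cxcl1 and Cxcl5, by signal near background.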
